A study of Mus musculus with 6 samples.

Results

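The genes described here encode the signalling chains of the T cell receptor and the receptors and regulator that define the main classes of T cell. They were the 10 genes Cd3d, Cd3e, Cd3g, Cd247, Cd4, Cd8a, Cd8b1, Lck, Cd28 and Foxp3, chosen by symbol, a rule that uses none of the measured values. A gene was measured where a probe set of the array was paired with its symbol alone, and where several were, the brightest on average over the 6 arrays was taken. By this rule 8 of the 10 genes were measured, each by 1 probe set, of 22180 genes so measured in all. Cd247, the zeta chain of the receptor, and Lck, the kinase that starts its signal, were not analysed here.

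RNA was taken from the lungs of male C57Bl6 mice, 3 of them control and 3 Cd-treated, with 1 Affymetrix Mouse Gene ST 2.0 array per mouse, each labelled a biological replicate. All mice entered the study at 8 weeks of age and were housed for 20 weeks, so that lungs were taken at 28 weeks. Cd-treated mice drank water with 10 mg/L CdCl2, and control mice drank water without it. Both groups ate the same chow, which itself carried trace Cd. The labels give snap-frozen lung tissue as the source, so that every value is an average over all cells of the piece. Transcript abundance is given as the deposited log2 value of the robust multiarray average (RMA), in which a difference of 1 is a doubling. Levels of different probe sets were not compared with each other, since probes differ in brightness.

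The T cell receptor recognizes peptides held by MHC molecules, but its antigen-binding chains have no signalling domain of their own. They depend on the CD3 gamma, delta and epsilon chains and on zeta, whose tyrosine motifs are phosphorylated by LCK. CD4 and CD8 are coreceptors that bind MHC class II and class I and bring LCK to the receptor, CD28 gives the costimulatory signal, and FOXP3 is the transcription factor that defines regulatory T cells. In the lung, T cells lie in the airway wall, the parenchyma and the vessels, and in lymphoid clusters beside the airways.

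None of the 8 genes was called different between the groups, and their differences pointed both ways. From limma, which fitted a linear model to all 41345 probe sets with the group as its term, 0 of the 8 genes had an unadjusted p under 0.05, against 2.01% of all probe sets. The log2 difference, Cd-treated minus control, was above 0 for 4 genes and below 0 for the other 4, and ran from -0.34 for Cd4 to 0.21 for Foxp3. Its median over the 8 genes was 0.013, beside 0.015 over all probe sets, and the median size without regard to sign was 0.14, beside 0.19. The adjusted p of limma (Benjamini-Hochberg over all probe sets) lay between 0.992 and 0.996 for the 8 genes, and the smallest over the whole table was 0.992. The groups did not overlap for 1 of the 8 genes, Cd4, and for 7.00% of all probe sets.

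**Figure D1:**
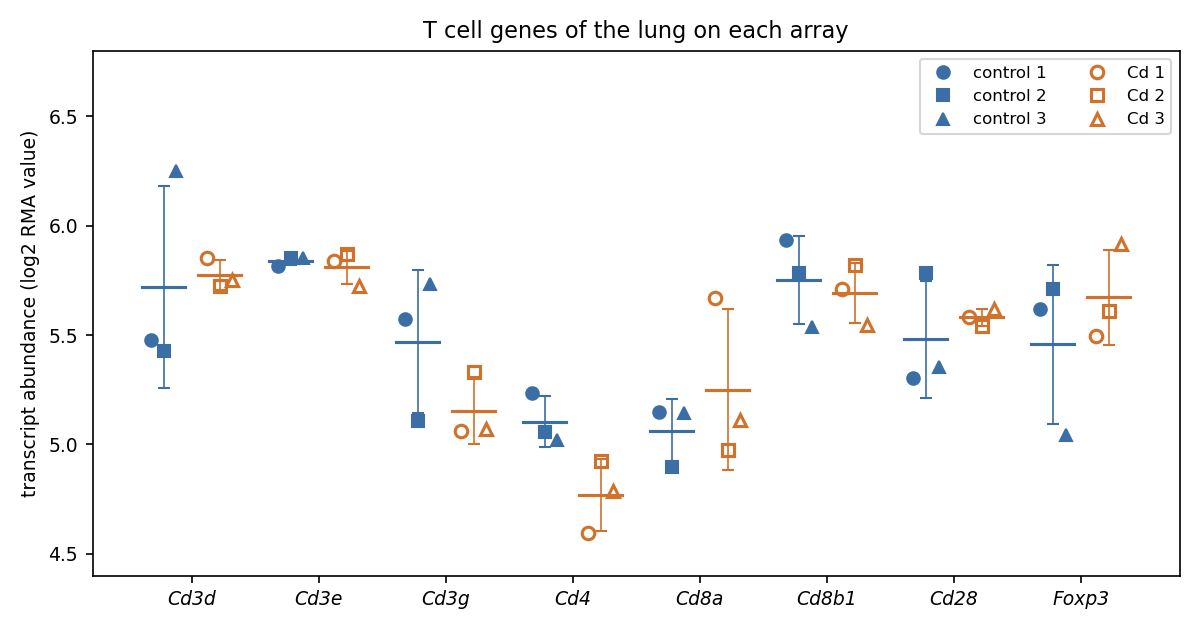
Transcript abundance (log2 RMA value, vertical axis) of the 8 measured genes (horizontal axis) on each array. Filled blue symbols are the control arrays and open orange symbols the Cd-treated arrays, the symbol shape gives the replicate number, and bars show the group mean ± SD (n = 3). Readings lie between 4.59 and 6.25, and Cd4 is the gene whose groups do not overlap.

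Of the readings, 8 genes by 6 arrays, none lay below the lower quartile of its array, and 1, Cd3d on control replicate 3, lay above the upper quartile. Array medians over all probe sets were 4.86 to 5.12. Cd3d, Cd3e, Cd8b1, Cd28 and Foxp3 were above the array median on all 6 arrays, Cd3g on 5, Cd8a on 3 and Cd4 on 2. The T cell genes thus sat in the middle of the brightness distribution in whole lung, where a difference of cells and a difference of RNA per cell cannot be told apart. The surfactant gene Sftpc, which marks alveolar type 2 cells of the lung, was bright on every array (11.99 to 12.57).

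The CD3 genes are neighbours in the mouse genome. Cd3d and Cd3g are transcribed away from each other from starts 1355 bases apart, and the start of Cd3e lies 27825 bases from that of Cd3d. The promoters of these 3 genes are shown because 1 locus holds them while their readings did not move together on these arrays. Each window holds 250 bases before to 50 after the start, from RefSeq (GRCm38.p6), written 5′ to 3′ along the gene's own strand: Cd3e at chr9:45009562-45009861 (minus strand), Cd3d at chr9:44981536-44981835 (plus strand) and Cd3g at chr9:44980382-44980681 (minus strand). Capitals mark CAGGTG (or CACCTG on the other strand), an E box form that E proteins bind, and AGGAAG (or CTTCCT), a form that ETS factors bind.
Cd3e: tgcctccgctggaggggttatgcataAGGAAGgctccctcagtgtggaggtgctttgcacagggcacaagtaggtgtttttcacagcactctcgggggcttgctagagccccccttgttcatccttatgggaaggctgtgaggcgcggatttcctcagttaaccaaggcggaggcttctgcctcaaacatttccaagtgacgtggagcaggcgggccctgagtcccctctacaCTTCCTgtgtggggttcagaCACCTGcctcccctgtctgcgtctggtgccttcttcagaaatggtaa
Cd3d: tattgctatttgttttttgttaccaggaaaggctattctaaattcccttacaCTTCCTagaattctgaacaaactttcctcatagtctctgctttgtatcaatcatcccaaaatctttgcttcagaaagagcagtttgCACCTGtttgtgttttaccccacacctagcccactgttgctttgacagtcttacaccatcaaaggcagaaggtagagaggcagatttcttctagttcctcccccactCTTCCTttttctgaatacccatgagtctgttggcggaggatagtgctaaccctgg
Cd3g: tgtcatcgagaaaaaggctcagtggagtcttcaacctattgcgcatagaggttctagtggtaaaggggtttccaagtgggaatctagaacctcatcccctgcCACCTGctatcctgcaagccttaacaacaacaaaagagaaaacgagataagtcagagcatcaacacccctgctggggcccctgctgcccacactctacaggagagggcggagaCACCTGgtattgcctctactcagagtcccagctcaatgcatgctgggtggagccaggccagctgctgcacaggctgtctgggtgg
The E box form occurred 1 time in the window of Cd3e, 1 time in that of Cd3d and 2 times in that of Cd3g. The ETS form occurred 2 times for Cd3e, 2 times for Cd3d and 0 times for Cd3g, and no marked match overlapped another. Among 32851 promoter windows of the same length, 20.2% held the E box form and 35.4% the ETS form. TATAAA (or TTTATA), the form of a TATA box, was in none of the 3 windows and in 13.6% of all. The letters searched were chosen after the windows had been read, and a match is not a site of binding. Of the 10 genes, 7 had a promoter entry, and Cd4, Cd8b1 and Cd28 are named only.

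Cd3e encodes the epsilon chain, which pairs with both delta and gamma in the receptor. It read 5.82, 5.85 and 5.85 on the control arrays and 5.84, 5.87 and 5.72 on the Cd-treated arrays. All readings lay within 0.15, the narrowest range of the 8 genes, and the groups overlapped. The log2 difference was -0.031 (standard error 0.17, 95% interval -0.43 to 0.37, p = 0.859 from limma), and an exact permutation test gave a two-sided p = 0.8. With 3 arrays against 3, the smallest p of that exact test is 0.1.

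Cd3d encodes the delta chain. It read 5.48, 5.43 and 6.25 on the control arrays and 5.85, 5.72 and 5.75 on the Cd-treated arrays. Control replicate 3 stood 0.80 above the mean of the other control arrays and was the highest of all, whereas the other control arrays were the lowest. Cd-treated minus control, this gave a log2 difference of 0.056 (standard error 0.26, 95% interval -0.56 to 0.67, p = 0.836 from limma, exact permutation p = 1). Without control replicate 3 it was 0.32 (95% interval -0.12 to 0.76), and every Cd-treated array then read above both control arrays. How many of all probe sets separate the groups without that array was not counted.

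Cd3g encodes the gamma chain. It read 5.57, 5.11 and 5.73 on the control arrays and 5.06, 5.33 and 5.07 on the Cd-treated arrays. Control replicates 1 and 3 were the highest arrays, and control replicate 2 lay among the Cd-treated arrays. The log2 difference was -0.32 (standard error 0.23, 95% interval -0.85 to 0.22, p = 0.206 from limma, exact permutation p = 0.2). Without control replicate 3 it was -0.18 (95% interval -0.74 to 0.37).

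Cd4 encodes the coreceptor of helper and regulatory T cells, and in mice it is also expressed by some dendritic cells. It read 5.24, 5.06 and 5.02 on the control arrays and 4.59, 4.92 and 4.79 on the Cd-treated arrays. Each Cd-treated array was below each control array, the lowest being Cd-treated replicate 1. Group means were 5.10 ± 0.12 and 4.77 ± 0.17 (SD, n = 3), and the log2 difference was -0.34 (standard error 0.19, 95% interval -0.78 to 0.10), or a ratio of 0.793 (95% interval 0.584 to 1.08). This was the smallest p of the 8 genes and did not pass (p = 0.115 and adjusted p = 0.992 from limma, exact permutation p = 0.1). The methods name limma for the arrays. The methods' t-test, named there for gene expression and run here only as an alternative, gave on the same values an unadjusted p of 0.0452, and its adjusted p passed for 0 of 41345 probe sets. With each array left out in turn, the log2 difference stayed between -0.41 and -0.25.

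Cd8a encodes the alpha chain of CD8, present on cytotoxic T cells and, as a homodimer, on some dendritic and innate-like lymphoid cells. It read 5.15, 4.90 and 5.14 on the control arrays and 5.67, 4.98 and 5.11 on the Cd-treated arrays. Cd-treated replicate 1, which was lowest for Cd4, was highest for Cd8a, and the other Cd-treated arrays lay within the control range. Between the groups the log2 difference was 0.19 (standard error 0.24, 95% interval -0.37 to 0.75, p = 0.453 from limma, exact permutation p = 0.6), and without Cd-treated replicate 1 it was -0.020.

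Cd8b1 encodes the beta chain, which marks conventional cytotoxic T cells more narrowly than the alpha chain. It read 5.94, 5.78 and 5.54 on the control arrays and 5.71, 5.82 and 5.55 on the Cd-treated arrays, so that the groups overlapped throughout. The difference between the group means was -0.060 on the log2 scale (standard error 0.20, 95% interval -0.52 to 0.40, p = 0.769 from limma, exact permutation p = 0.8). The array that was highest for Cd8a, Cd-treated replicate 1, was near the middle for Cd8b1.

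Cd28 encodes the receptor through which the ligands CD80 and CD86 costimulate T cells. It read 5.30, 5.79 and 5.35 on the control arrays and 5.58, 5.54 and 5.62 on the Cd-treated arrays. The Cd-treated arrays lay close together (5.58 ± 0.039, SD, n = 3) inside the control range (5.48 ± 0.27). The group means differed by a log2 value of 0.10 (standard error 0.20, 95% interval -0.38 to 0.58, p = 0.633 from limma, exact permutation p = 0.5). It was 0.012 without control replicate 1, 0.25 without control replicate 2 and 0.037 without control replicate 3.

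Foxp3 read 5.62, 5.71 and 5.04 on the control arrays and 5.50, 5.61 and 5.92 on the Cd-treated arrays. Control replicate 3 was the lowest, 0.62 below the mean of the other control arrays, and Cd-treated replicate 3 was the highest. The log2 difference was 0.21 (standard error 0.25, 95% interval -0.37 to 0.80, p = 0.412 from limma, exact permutation p = 0.6). Without control replicate 3 it was 0.0068 (95% interval -0.51 to 0.52).

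**Figure D2:**
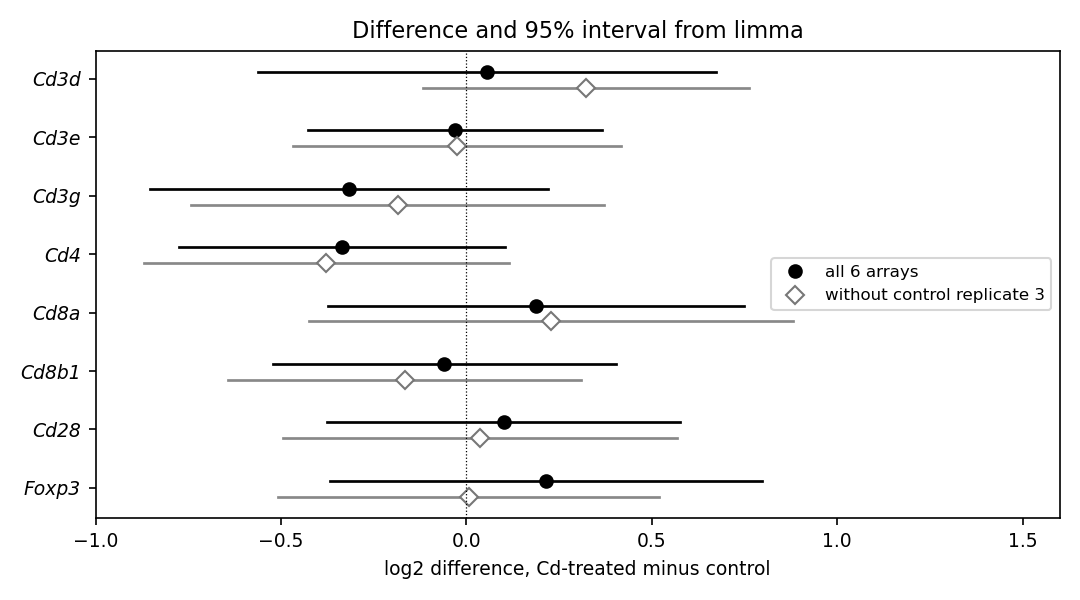
Log2 difference, Cd-treated minus control (horizontal axis), of each of the 8 genes (vertical axis), with 95% intervals from limma. Black circles use all 6 arrays and grey diamonds leave out control replicate 3. Every interval crosses 0, and Cd3d moves from 0.056 to 0.32 and Foxp3 from 0.21 to 0.0068.

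For all 8 genes the 95% interval of the difference lay within a log2 change of 1 in either direction, the lowest bound being -0.85 (Cd3g, a ratio of 0.554) and the highest 0.80 (Foxp3, a ratio of 1.74). Each array was the highest for at least 1 of the 8 genes. Control replicate 3 was the highest for Cd3d and Cd3g and the lowest for Cd8b1 and Foxp3, and Cd-treated replicate 1 was the highest for Cd8a and the lowest for Cd3g and Cd4. The mean over the 8 genes was accordingly level, at 5.45 to 5.51 on the control arrays and 5.44 to 5.47 on the Cd-treated arrays.

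The 8 genes did not vary together over the 6 arrays. Of their 28 pairs, 11 had a Pearson r above 0 and 17 below, and the median r was -0.11. Among the CD3 chains r was 0.42 for Cd3d with Cd3g, 0.34 for Cd3e with Cd3g and 0.084 for Cd3d with Cd3e, and without control replicate 3 that of Cd3d with Cd3g was -0.45. The chains of CD8, Cd8a and Cd8b1, had an r of -0.15, and Cd4 with Cd8a had -0.67. The highest value was 0.65 for Cd3g with Cd4 and the lowest -0.86 for Cd3g with Cd28. The list of 10 pan leukocyte genes, which all white blood cells share to some degree, gave a median r of 0.81, with 44 of 45 pairs above 0, and 0.64 without control replicate 3. Among the lists of other T cell genes the median r was near 0 for costimulation and checkpoint genes (0.016), regulatory T cell genes (-0.080) and genes of traffic and survival (-0.038), and 0.12 to 0.33 for effector genes, signalling genes, transcription factors and chain segments. A low median r was thus shared with other T cell lists. Among lists of other white blood cells it was 0.0099 for dendritic cells, 0.13 for NK cells and 0.15 for B cells. It was 0.34 for macrophages and monocytes and 0.46 for neutrophils. Without control replicate 3 the median over the 28 pairs of T cell genes was -0.21. These values describe 6 arrays, which share their scaling and include an array that stands apart, and they carry no test.

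**Figure D3:**
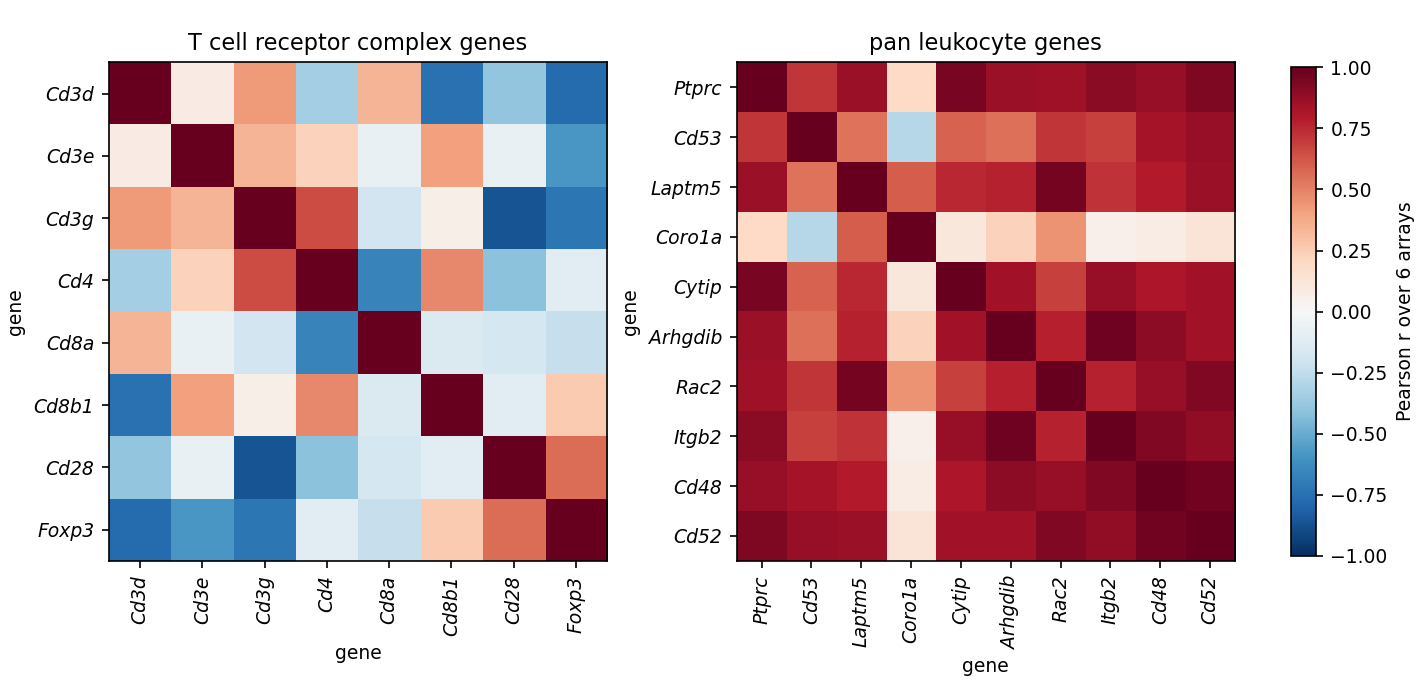
Pearson r over the 6 arrays (colour scale, red above 0 and blue below) between genes of the T cell receptor complex (left) and between 10 pan leukocyte genes (right), with genes on both axes. Of the pairs of pan leukocyte genes, 44 of 45 are above 0 (median r 0.81), and the T cell genes are mixed (median r -0.11).

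The genes whose pattern was most like the mean of Cd3d, Cd3e and Cd3g were sought among 17772 genes with at least the range of this mean. The mean read 5.62, 5.46 and 5.95 on the control arrays and 5.58, 5.64 and 5.52 on the Cd-treated arrays. The 5 closest were Zfp703, Alkbh7, Ripply3, Smc4 and Ceacam1, with r between 0.997 and 0.998, and each had its highest reading on control replicate 3. An r above 0.9 was reached by 1676 genes. Ranked by this r, Cd4 was 8511th, Cd8a 9110th and Foxp3 17334th, while Cd8b1 and Cd28 had too small a range to be ranked.

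Of the other genes through which T cells are made, activated and kept, 143 were measured in 7 lists, some genes standing in more than 1 list. With limma 0 of the 143 had an unadjusted p under 0.05, against 2.01% of all probe sets, and the methods' t-test, as an alternative, gave 3, Cd6, Cxcr5 and Tnfrsf4. The median log2 difference over the 143 genes was -0.014. The groups did not overlap for 9 of them (6.29%, beside 7.00% of all probe sets), and these were Trav14d-3-dv8, Cd6, Sla2, Tnfrsf4, Cd80, Entpd1, Tbx21, Cxcr5 and Itgb7.

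**Figure D4:**
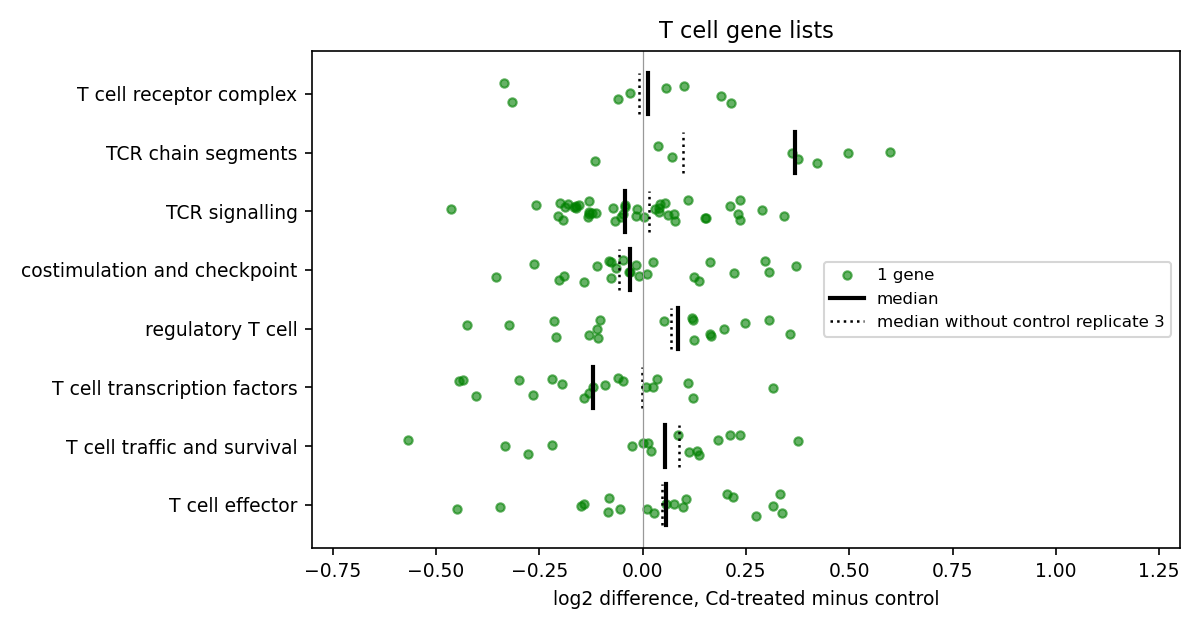
Log2 difference, Cd-treated minus control (horizontal axis), of the genes of 8 lists (vertical axis). Each point is 1 gene with its vertical place scattered for view, the solid bar is the list's median and the dotted bar the median without control replicate 3. The median of the TCR chain segments moves from 0.37 to 0.098, and the other lists centre near 0.

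The antigen-binding chains are assembled from gene segments, of which 8 were measured. Constant segments such as Trac were not analysed here. Of the 8 segments 7 had a log2 difference above 0, with a median of 0.37, and none was called by limma. Without control replicate 3 the median was 0.098. The beta segment Trbv13-2 read 3.69, 2.73 and 2.87 on the control arrays and 3.22, 3.96 and 3.90 on the Cd-treated arrays (log2 difference 0.60, standard error 0.33). Trav3-4 had a difference of 0.50, with control arrays at 2.55 to 3.19 and Cd-treated arrays at 3.17 to 3.57. Trbv13-2 and Trav3-4 were dim, with means at percentiles 15.1 and 11.6 of all probe sets. Trav14d-3-dv8 read 5.17, 5.03 and 4.65 on the control arrays and 5.55, 5.27 and 5.31 on the Cd-treated arrays (log2 difference 0.42), without overlap. Trav12-2 was at 5.96 on control replicate 3 and at 7.06 to 7.32 on the other arrays. Trav14d-3-dv8 had 3 probe sets and Trav12-2 had 6, of which the brightest is given. With the mean of the probe sets of each, their differences were 0.20 and 0.20, beside 0.42 and 0.36. Segments of a family are close in sequence, so that probes may read more than 1 of them.

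The list of T cell receptor signalling held 43 genes, among them surface receptors and genes that restrain the signal. Of these 43, 18 had a difference above 0 and 25 below, with a median of -0.043. Zap70, the kinase recruited to the phosphorylated CD3 and zeta chains, read 4.42, 4.48 and 4.95 on the control arrays and 4.82, 4.71 and 4.56 on the Cd-treated arrays (log2 difference 0.079). Lat, the adaptor that ZAP70 phosphorylates, had a difference of 0.039, and Ptprc, the CD45 phosphatase that keeps LCK active and is found on all leukocytes, -0.20. The 4 smallest p belonged to Nfatc1, Sla2, Ubash3b and Cd6. Nfatc1, a transcription factor switched on by calcium signals, read 5.52, 5.34 and 5.91 against 5.40, 5.16 and 4.81 in Cd-treated lungs (log2 difference -0.46, standard error 0.25, exact permutation p = 0.2). Sla2 and Ubash3b, which both restrain receptor signalling, had differences of 0.34 and 0.29, and without control replicate 3 of 0.14 and 0.45. That of Nfatc1 was then -0.30. Cd6, a surface receptor of T cells, read 5.12, 5.24 and 5.13 against 5.53, 5.34 and 5.32 (log2 difference 0.23).

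Of 24 costimulation and checkpoint genes, 9 had a difference above 0 and 15 below (median -0.032). Cd80, a ligand of CD28 and CTLA4 on antigen-presenting cells, read 5.21, 5.66 and 5.04 on the control arrays and 4.85, 5.02 and 4.97 on the Cd-treated arrays (log2 difference -0.36, exact permutation p = 0.1), without overlap. Ctla4, the inhibitory counterpart of CD28, had a difference of 0.31, Cd27, a costimulatory receptor, 0.37, and Cd244a, a receptor of NK and cytotoxic T cells, 0.22. Cd27 had a difference of 0.20 without control replicate 3, and Cd244a had 0.073 without Cd-treated replicate 3. Ctla4 was dim, with its mean at percentile 21.5 of all probe sets. Tnfrsf4, the costimulatory receptor OX40 and named here after its values were seen, read 5.77, 5.70 and 5.66 on the control arrays and 5.87, 5.88 and 5.86 on the Cd-treated arrays.

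Among 18 genes of regulatory T cells, 10 had a difference above 0 and 8 below (median 0.085). Il2ra, the high-affinity chain of the interleukin 2 receptor, read 4.26, 4.64 and 3.90 on the control arrays and 4.21, 4.53 and 4.55 on the Cd-treated arrays (log2 difference 0.17). Entpd1, an ectoenzyme that breaks down extracellular ATP and is also found on endothelium, read 7.00, 6.94 and 7.31 against 6.90, 6.82 and 6.55 (log2 difference -0.32), without overlap. Lrrc32, which holds latent TGF-beta on the cell surface, had a difference of -0.43 and Gpr83, a receptor enriched in regulatory T cells, 0.36. These were -0.17 and 0.19 without control replicate 3, when that of Entpd1 was -0.21 and that of Il2ra -0.019. The mean of Lrrc32 lay at percentile 78.9 of all probe sets, and which cells gave its readings was not tested. Of the 18 genes, 3 had their lowest reading on control replicate 3 and their highest on Cd-treated replicate 3, as Foxp3 did. These were Gpr83, Il10 and Izumo1r, and this feature was picked after the values were seen. The share of all genes with this feature was not counted. Over all probe sets, control replicate 3 had the lowest array median (4.86) and Cd-treated replicate 3 the highest (5.12).

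Of 19 transcription factors of T cells, 6 had a difference above 0 and 13 below (median -0.12), and without control replicate 3 the median was -0.0014. Tbx21, which directs type 1 helper and cytotoxic cells, read 5.04, 5.50 and 5.56 on the control arrays and 5.82, 5.57 and 5.65 on the Cd-treated arrays (log2 difference 0.31), without overlap. Gata3, which directs type 2 helper cells, had a difference of 0.0083. Klf2 and Foxp1, which hold T cells in a resting state, had -0.44 and -0.30, and Id2, a regulator of effector cells that many cell types express, had -0.40 with its highest reading, 7.56, on control replicate 3. Without that array the difference was -0.0014 for Id2, -0.23 for Klf2 and -0.15 for Foxp1. Klf2 and Foxp1 had means at percentiles 86.1 and 94.4 of all probe sets. Which cells of the lung gave their readings was not tested.

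Among 16 genes of traffic and survival, 11 had a difference above 0 and 5 below (median 0.053). Ccr7, the receptor that guides naive and memory cells to lymphoid tissue, read 6.14, 6.16 and 6.20 on the control arrays and 6.13, 5.91 and 6.79 on the Cd-treated arrays (log2 difference 0.11). Il7r, the receptor of a survival signal, had a difference of 0.14. S1pr1, which lets lymphocytes leave lymphoid organs and is also abundant in endothelium, read 7.22, 7.47 and 8.16 against 7.27, 7.28 and 6.60 (log2 difference -0.57, exact permutation p = 0.3), and without control replicate 3 its difference was -0.30. Cxcr5, a receptor of B cells and follicular helper cells, had a difference of -0.22 and Itgb7, an integrin chain for homing to mucosa, 0.21, both without overlap, and Ccr8 had 0.38. Ccr8 was dim, with its mean at percentile 25.3 of all probe sets, and without Cd-treated replicate 3 its difference was 0.13.

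Among 19 effector genes, 12 had a difference above 0 and 7 below (median 0.057). Of the cytokine genes, Il4 was dim, with its mean at percentile 25.05 of all probe sets. The means of Il17a and Il2 lay at percentiles 31.7 and 46.5. Il4, Il17a and Il2 had differences of 0.34, 0.32 and 0.33. Leaving out control replicate 3, which was lowest for all of them, these were 0.26, 0.25 and 0.0046, and leaving out Cd-treated replicate 3, that of Il17a was 0.13 and that of Il4 0.19. Gzma, a granule protease of cytotoxic T cells and NK cells, read 5.16, 5.49 and 6.81 on the control arrays and 5.77, 5.08 and 5.25 on the Cd-treated arrays (log2 difference -0.45), and without control replicate 3 its difference was 0.046.

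Markers of other cells were read as list means on each array. The 10 pan leukocyte genes averaged 6.34 to 7.07 on the control arrays and 6.26 to 6.66 on the Cd-treated arrays, with the highest mean on control replicate 3. All 10 had a log2 difference below 0 (median -0.19), none passed, and without control replicate 3 the median was 0.022. The 15 skeletal muscle genes averaged 8.12 on control replicate 3 and 5.31 to 5.45 on the other arrays, and the 11 measured squamous epithelium genes averaged 5.54 there and 4.47 to 4.81 elsewhere. The part of skeletal muscle or squamous epithelium in the readings of Cd3d, Cd3g and Foxp3 on that array was not tested. Over 12 B cell genes the mean was 5.94 to 6.21 on the control and 5.87 to 6.15 on the Cd-treated arrays, and over 14 NK cell genes 5.07 to 5.49 and 5.17 to 5.25. Over 12 neutrophil genes it was 5.07 to 5.77 on the control and 4.90 to 5.90 on the Cd-treated arrays. An unadjusted p under 0.05 from limma, which 2.01% of all probe sets had, was given to 1 of 12 B cell genes (Ighm, log2 difference -0.80), 1 of 14 NK cell genes (Klrc1, 0.74), 1 of 12 neutrophil genes (Ly6g, 0.86) and 1 of 15 skeletal muscle genes (Mb, lower in Cd-treated lungs), each with an adjusted p of 0.992. Over 15 macrophage and monocyte genes the mean was 6.15 to 6.69 and 6.13 to 6.36, and over 14 dendritic cell genes 5.41 to 5.71 and 5.39 to 5.47, with none called.

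**Figure D5:**
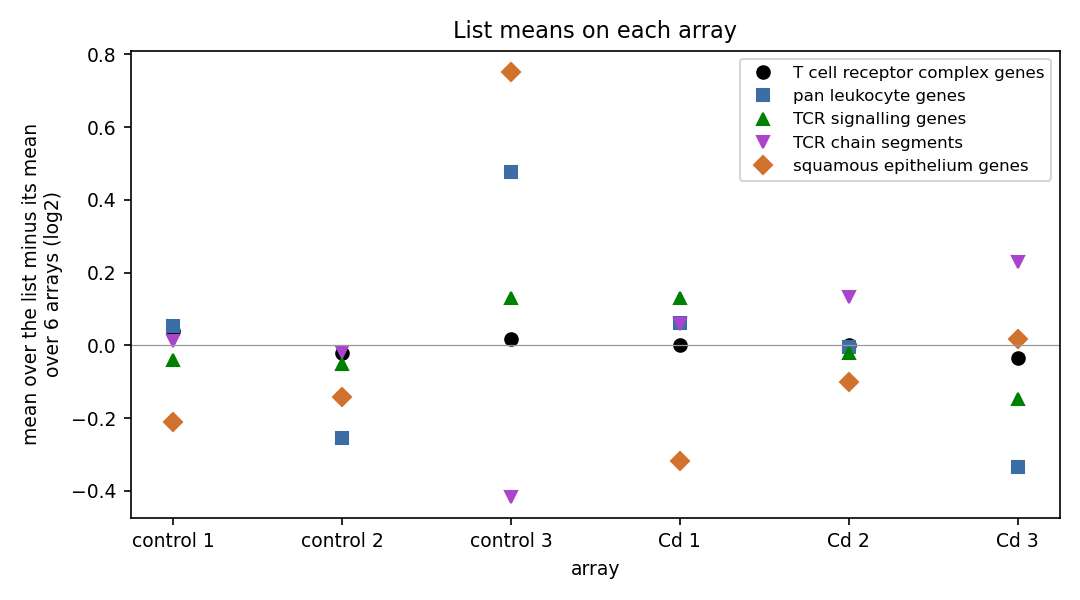
Mean over each list on each array (horizontal axis), shown as its distance from the list's own mean over 6 arrays (log2, vertical axis). On control replicate 3 the pan leukocyte and squamous epithelium lists are highest and the TCR chain segments lowest, and the T cell receptor complex genes stay near 0 on all arrays.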

How the data were processed

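RNA from lungs of 3 control mice and 3 Cd-treated mice was amplified and hybridized to 6 arrays. The deposited log2 values were made by the authors with RMA of the R package oligo (background correction, quantile normalization between arrays, median polish), and the submitters' processing notes also name limma. The methods name the annotation release of the arrays, but versions of these tools and a genome build are not given in the sources used here. The table held 41345 probe sets, 23521 paired with 1 gene symbol, and no value was missing. Correlations between arrays were 0.82 to 0.971, and the number of arrays limits the precision. Groups were compared in R 4.3.3 with limma 3.58.1 over all probe sets (lmFit, eBayes, no filter), with p-values adjusted by Benjamini-Hochberg, and single genes by an exact two-sided permutation test. A gene was called at an unadjusted p under 0.05. The steps were tested on simulated data. The genes and lists were chosen with earlier results of these data known. Named were all measured members, the 4 genes of each T cell list with the smallest p, some central genes of the lists and the 5 closest patterns. Alternatives were other priors, tests, normalizations, weights and filters, the replicate block, and each array left out.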

Additional observations from a re-analysis of the deposited data

How the results depend on the processing

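With 3 arrays per group, differences smaller than the distance from an estimate to either bound of its interval could not be told from 0. The count of T cell receptor complex genes called, 0 of 8, was 0 with a trended and robust prior, cyclic loess, quantile normalization, the filters and each array left out (0 to 0), and 1 (Cd4) with the methods' t-test and 1 (Cd4) with array weights. The filter on intensity left 7 of the 8 genes, without Cd4. Cd4 remained the 1 gene without overlap under cyclic loess and quantile normalization, both added after seeing the data. Array weights, estimated from the same 6 arrays, ran from 0.23 for control replicate 3 to 6.41 for Cd-treated replicate 2. With them 10119 probe sets (24.5%) had an unadjusted p under 0.05 from limma, beside 831 in the plain fit. An adjusted p under 0.05 was reached by 903 probe sets, beside 0 in the plain fit. Of the other T cell genes, 22 had an unadjusted p under 0.05 with the weights, beside 0. The methods' t-test gave 3 of those genes, and leaving out 1 array gave 0 to 4, the highest without control replicate 2 (Ccl5, Cd27, Nrp1 and Trav3-4). Over all probe sets, 300 were called after the filter on intensity and 427 after that on symbols, which test fewer probe sets, and 607 to 1650 without 1 array, the highest without control replicate 2.

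For arrays of the same replicate number, r of deviations from the group means was -0.49, 0.07 and -0.51 for numbers 1, 2 and 3. Across numbers it reached 0.56, for control replicate 3 with Cd-treated replicate 1. Deviations within a group sum to 0, so these values depend on each other and cannot decide whether samples were paired. With the replicate block 0 of the 8 genes and 449 probe sets were called.

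The median over the 8 genes was 0.066 with cyclic loess, -0.045 with array weights and -0.034 to 0.041 without 1 array, and the cause was not tested. Other differences changed sign as follows. With cyclic loess Cd3e became 0.029, Ptprc 0.051 and Zap70 -0.0040, and with quantile normalization Gata3 became -0.049. With array weights Cd3e became 0.037, Cd8a -0.10, Ccr7 -0.17, Gata3 -0.13, Gpr83 -0.11, Ptprc 0.10 and Trav12-2 -0.021. Without 1 array, differences ran from -0.090 to 0.32 for Cd3d, from -0.061 to 0.012 for Cd3e, from -0.020 to 0.33 for Cd8a, from -0.17 to 0.032 for Cd8b1, from -0.15 to 0.30 for Ccr7, from -0.26 to 0.15 for Gata3, from -0.78 to 0.046 for Gzma, from -0.019 to 0.35 for Il2ra, from -0.022 to 0.14 for Lat, from -0.33 to 0.0048 for Ptprc, from -0.074 to 0.59 for Trav12-2 and from -0.019 to 0.24 for Zap70. Cd3g (-0.50 to -0.18 without 1 array), Cd4 (-0.41 to -0.25), Cd28 (0.012 to 0.25) and Foxp3 (0.0068 to 0.34) kept their sign under every alternative run.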

Other observations

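Relative to the control mean of the same quantity, the log2 ratio of Cd4 to Cd8a was 0.04, 0.12 and -0.17 on the control arrays and -1.12, -0.09 and -0.36 on the Cd-treated arrays. That of Cd4 to Cd8b1 was -0.05, -0.08 and 0.13 on the control arrays and -0.47, -0.25 and -0.11 on the Cd-treated arrays. The groups did not overlap for the latter and overlapped for the former, with the lowest value of both on Cd-treated replicate 1. Cd4 on its own was already without overlap and Cd8b1 differed by -0.060, so the ratio to Cd8b1 is no separate result. Other gene pairs were not counted. Both ratios were chosen after their values were seen and carry no test.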
